A study of Mus musculus with 2 samples.

Results

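EP300 occupancy was described at 7 core genes of the circadian clock: the period genes Per1, Per2 and Per3, the cryptochromes Cry1 and Cry2, and the activators Clock and Arntl (also called Bmal1). A peak was taken for a gene when its summit lay within 100 kb of a protein-coding transcription start site (TSS) and that TSS, the nearest 1, belonged to the gene. By this rule 19 of the 17339 peaks of the optimal list on the main chromosomes were taken, in 15 merged sites (summits joined where they lay no farther apart than the width of the widest call). EP300, or p300, is a histone acetyltransferase and coactivator that transcription factors bring to enhancers and promoters. Its positions were mapped by ChIP-seq, in which DNA bound to EP300 is pulled down with an antibody and sequenced, in heart tissue of newborn B6NCrl mice at postnatal day 0, in 1 group of 2 replicates with no treatment and no other age. Each sample is numbered as a biological replicate, 1 or 2. The biosample and donor entries, however, do not differ between them. Whether the replicates are separate animals is therefore unclear, and their spread may be technical. The labels leave sex uncollected. The hour of collection is not given in the sources used here, so the phase of the clock is unknown. With 1 group there was nothing to compare between conditions, and every value below is a description with no test.

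The clock is a feedback loop of transcription. CLOCK and ARNTL bind as a pair to E-boxes and switch on the Per and Cry genes. The PER and CRY proteins then enter the nucleus and hold back CLOCK and ARNTL, and so their own genes, until they are degraded. In a second loop the nuclear receptors ROR and REV-ERB act through ROR elements, on Arntl above all, and factors of the PAR bZIP family with the repressor E4BP4 (Nfil3) act through D-boxes, on Per genes among others. Per1 and Per2 also answer to signals from outside the cell, through cyclic AMP response elements (CREs) and through glucocorticoid response elements (GREs), and in peripheral organs such as the heart glucocorticoids are known to set the clock. Of the 7 genes, the period and cryptochrome genes encode the repressors and Clock and Arntl the activators, so the set is not made of repressors alone.

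The sequences under the peaks show where letters matching these elements lay beneath EP300. All are from the RefSeq genome sequence of GRCm38 (mm10), on the plus strand, centred on the summit, 5′ to 3′. The 3 peaks of highest signal at these genes, and the other Per1 peak with a GRE, are given as 200 bp. Capitals mark the GRE, searched on both strands as GNACA and TGTNC 3 bases apart, which is read alike from either strand. In the Arntl window, which held none of the clock elements searched, capitals mark CCAAT or its complement ATTGG.

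Per1, intronic peak of rank 2 (chr11:69096971-69097170): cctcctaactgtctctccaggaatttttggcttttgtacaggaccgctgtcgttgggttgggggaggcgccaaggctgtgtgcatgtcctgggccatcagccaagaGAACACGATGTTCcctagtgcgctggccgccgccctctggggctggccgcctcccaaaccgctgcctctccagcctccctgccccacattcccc

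Per2, intronic peak of rank 24 (chr1:91436395-91436594): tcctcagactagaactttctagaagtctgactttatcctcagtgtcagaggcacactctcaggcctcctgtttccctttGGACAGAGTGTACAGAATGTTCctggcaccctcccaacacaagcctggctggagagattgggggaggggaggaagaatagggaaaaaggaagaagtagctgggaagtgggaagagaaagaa

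Per1, internal promoter peak of rank 1337 (chr11:69099314-69099513): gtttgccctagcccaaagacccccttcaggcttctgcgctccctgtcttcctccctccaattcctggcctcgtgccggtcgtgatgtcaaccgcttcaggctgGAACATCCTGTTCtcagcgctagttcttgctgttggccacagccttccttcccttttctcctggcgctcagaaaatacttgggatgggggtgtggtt

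Arntl, promoter peak of rank 44 (chr7:113207168-113207367): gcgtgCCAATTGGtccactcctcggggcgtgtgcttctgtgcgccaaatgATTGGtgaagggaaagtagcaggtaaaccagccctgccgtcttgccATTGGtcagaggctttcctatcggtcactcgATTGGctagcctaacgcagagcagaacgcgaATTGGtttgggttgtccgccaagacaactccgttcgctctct

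The central 100 bp of 5 further peaks are shown because they held letter matches to the E-box or the D-box. Whether these matches act in the clock was not tested. Capitals mark the E-box CACGTG, which reads the same on both strands, or the D-box TTANGTAA, which stands here as its complement.

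Per1, upstream promoter peak of rank 479, E-box (chr11:69094843-69094942): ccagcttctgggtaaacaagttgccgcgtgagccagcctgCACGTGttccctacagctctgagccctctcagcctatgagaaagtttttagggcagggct

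Per1, upstream promoter peak of rank 1742, E-box (chr11:69095052-69095151): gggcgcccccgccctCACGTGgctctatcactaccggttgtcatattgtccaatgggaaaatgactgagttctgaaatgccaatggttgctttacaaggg

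Cry2, intron 3 peak of rank 3666, E-boxes (chr2:92423848-92423947): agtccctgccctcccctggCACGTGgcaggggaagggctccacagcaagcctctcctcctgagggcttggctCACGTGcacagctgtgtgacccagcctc

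Per2, promoter peak of rank 667, D-box (chr1:91459422-91459521): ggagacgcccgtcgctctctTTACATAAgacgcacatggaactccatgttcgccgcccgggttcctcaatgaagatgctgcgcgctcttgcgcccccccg

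Per3, promoter peak of rank 6603, D-boxes (chr4:151044789-151044888): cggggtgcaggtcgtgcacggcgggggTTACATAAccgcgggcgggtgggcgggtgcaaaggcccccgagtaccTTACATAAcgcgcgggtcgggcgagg

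Both D-boxes of Per3 and the D-box of Per2 are the same 8 bases, and all 3 lie just upstream of the annotated gene start.

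Per1, Per2 and Cry2 held most of the peaks, with 6, 5 and 5. Arntl held 2, Per3 held 1, and Cry1 and Clock held 0. Thus 5 of the 7 genes had at least 1 peak, where 31.8% of the 21864 protein-coding genes of the annotation did, and 3 had 5 or more peaks, where 3.03% of all genes did. These counts take neighbouring calls of 1 site separately. In merged sites Per1 held 5, Per2 held 4 and Cry2 held 3, and no share over all genes was taken by site. The authors' signal value is a height above control whose formula is not stated, and it served here for ranks and descriptions inside each list. It ran from 7.62 to 299.8 over the 19 peaks with a median of 46.8, and from 6.91 to 310.9 over all optimal peaks with a median of 30.6. The clock genes thus held some of the strongest and some of the weakest peaks of the list. In the highest 10% by signal stood 6 of the 19, against 10% of all optimal peaks, a share fixed by construction, and 3 stood among the first 50. A deposited −log10 q of at least 2 was reached by 11 of the 19, against 57.7% of all, so in this measure the clock peaks were close to the list as a whole.

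**Figure D1:**
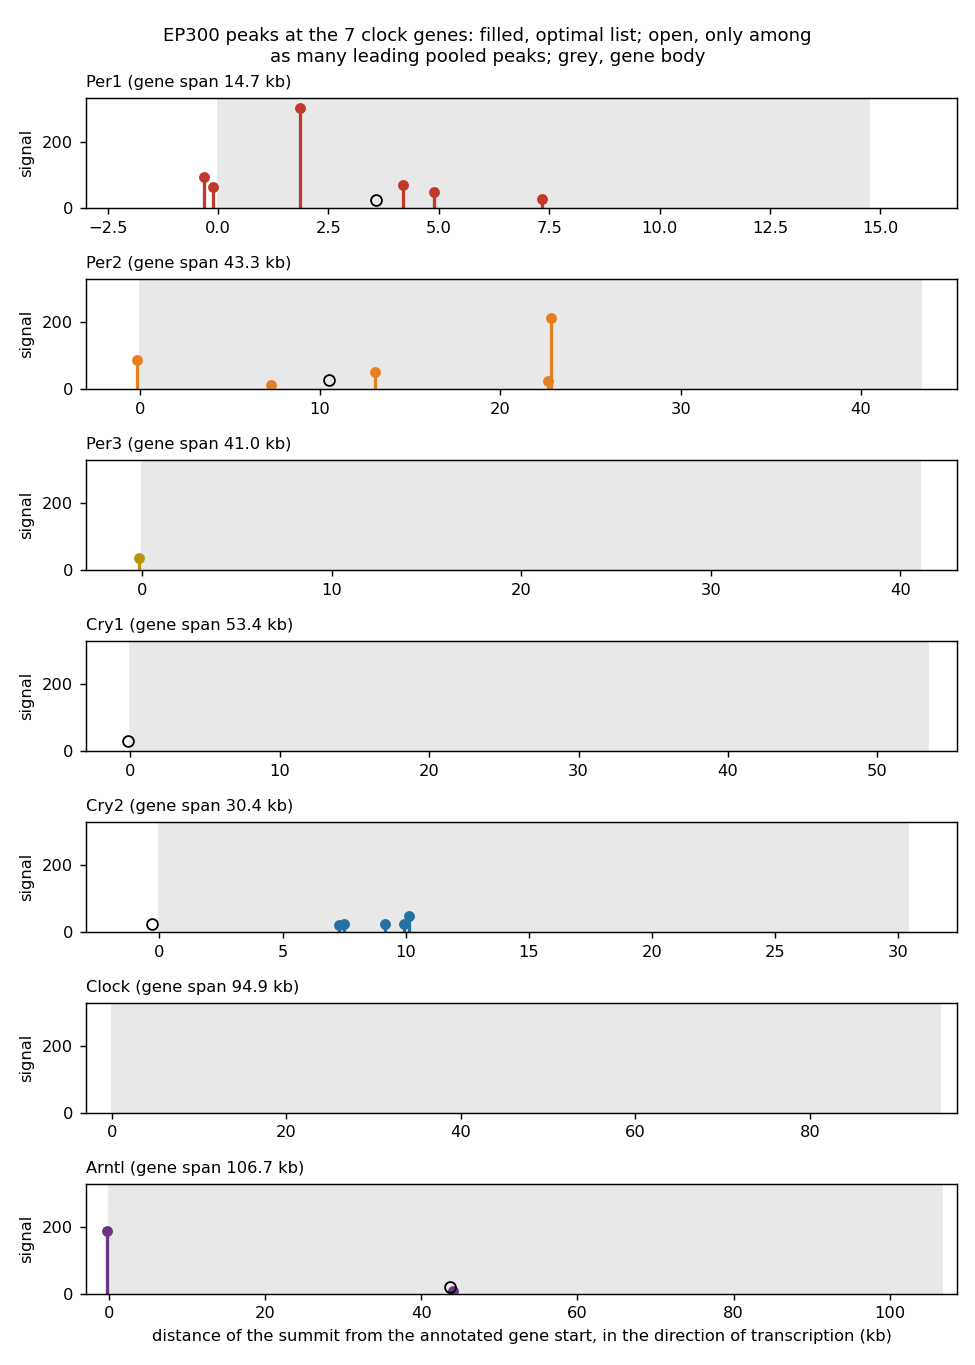
EP300 peaks along the 7 clock genes. The horizontal axis gives the distance of the summit from the annotated gene start in the direction of transcription (kb) and the vertical axis the authors' signal; filled points with stems are peaks of the optimal list, open circles are calls found only among as many leading peaks of the pooled list, and grey is the gene body. Per1 and Per2 each have 1 tall intronic peak beside a lower promoter peak, Arntl has its tall peak at the promoter (signal 189.2), and Cry1 and Clock have no filled point.

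Per1 carried the second strongest EP300 peak of the optimal list. Per1 (ENSMUSG00000020893, chr11:69095217-69109960, plus strand) encodes a repressor of the loop and is among the first clock genes to respond to light, hormones and other timing signals. The peak, at chr11:69096864-69097241, had a signal of 299.8 and a −log10 q of 3.57, the same q as every clock peak down to rank 1742. Only the peak of signal 310.9 stood above it, and that one lay beyond 100 kb of any coding TSS, so Per1 was the first of all genes by its strongest peak. E030018B13Rik came next, with 288.3. The summit lay 1854 bp after the annotated gene start and 1877 bp before the TSS of the transcript with the longest coding sequence. It was in intron 1 of the longest transcript, which is 1 of 5 coding transcripts, and upstream of the other 4. The site was therefore intronic or promoter-upstream depending on the transcript. In replicate 1 the call had signal 161.1 and rank 3, and in replicate 2 signal 139.3 and rank 1, with the summit of each 16 bp from the optimal summit. The GRE began 6 bp after the summit (chr11:69097077-69097089). A full CRE, TGACGTCA, lay in the same deposited interval, 131 bp after the summit (chr11:69097202-69097209) and outside the 200 bp window.

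The other 5 peaks of Per1 lay at its alternative promoters and in intron 8. At the annotated gene start, 2 overlapping calls with summits 324 bp and 115 bp upstream had signals of 93.8 (rank 479) and 62.8 (rank 1742). They count as 1 merged site, and each held its own E-box within 35 bp of its summit, at chr11:69094883-69094888 and chr11:69095067-69095072. At the internal promoter, the peak at chr11:69099342-69099489 had signal 69.2 (rank 1337), 466 bp after the TSS of the transcript with the longest coding sequence. It was the second Per1 peak with a GRE, which began 3 bp after the summit (chr11:69099417-69099429). A peak of 47.9 (chr11:69099854-69100349, rank 3471) lay 50 bp before a further coding TSS and held the CRE part TGACGT at chr11:69100020-69100025. The weakest, 26.8 (chr11:69102310-69102805, rank 10705), lay in intron 8 and held 2 matches to the AP-1 motif TGANTCA. All 6 were among the 17372 leading peaks of both replicates, and their summed signal of 600.4 placed Per1 the 19th of all genes. A further call, 3584 bp after the gene start, had pooled signal 23.9 (rank 14489) and was not in the optimal list. In replicate 1 a call at 3589 bp had signal 34.5 and rank 2114. The nearest leading call of replicate 2 lay at 3130 bp, with signal 10.6 and rank 17312. Without replicate 1, that is among the leading peaks of replicate 2 alone, Per1 had 10 peaks in place of 6.

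Per2 had the peak of rank 24 in the middle of the gene rather than at its start. Per2 (ENSMUSG00000055866, chr1:91415982-91459324, minus strand) encodes the period protein whose amount and phosphorylation set the length of the cycle. The peak at chr1:91436307-91436620 lay in intron 9, 22829 bp after the only coding TSS, with a signal of 212.0 in the optimal list, 117.8 (rank 23) in replicate 1 and 92.8 (rank 27) in replicate 2. It held 2 overlapping GREs, at chr1:91436474-91436486 and chr1:91436483-91436495, which share the 4 bases GTAC. Over all optimal peaks, 5 windows held 2 or more GREs. A weaker call beside it in intron 9 (chr1:91436457-91436952, signal 25.2, rank 11609) belonged to the same merged site. The Per2 promoter peak (chr1:91459224-91459719) had signal 86.0 and rank 667, with ranks 1029 and 314 in the replicates, and its summit lay 148 bp upstream of the TSS. It held the D-box at chr1:91459442-91459449. The E-prime box CACGTT, a variant of the E-box that is known to drive the rhythm of Per2, lay in the interval as its complement at chr1:91459314-91459319, 5 bp inside the gene and 158 bp from the summit. It was inside the called interval and outside the 200 bp window.

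The remaining Per2 peaks were intronic. That of intron 4 (chr1:91446000-91446495) had signal 51.8, with ranks 2513 and 6795 in the replicates, and held the GATA motif AGATAA near its summit. That of intron 1 (chr1:91451769-91452264) had signal 12.0 and a −log10 q of 0.302. No call of replicate 1 lay within 100 bp of it, and in replicate 2 it ranked 20764, so neither replicate held it among the leading peaks. By summed signal, 387.2, Per2 stood 97th of all genes, and 4 of its 5 peaks were among the leading peaks of both replicates. A further call inside Per2 was not in the optimal list. In the pooled list it lay 10495 bp after the gene start, with signal 26.6 and rank 11964. Replicate 1 had it at 10489 bp (signal 13.6, rank 16754) and replicate 2 at 10493 bp (signal 11.7, rank 14264). It was thus among the leading peaks of each of these lists.

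Per3 had a single promoter peak on which the replicates differed. Per3 (ENSMUSG00000028957, chr4:151003652-151044665, minus strand) encodes the period protein that the basic rhythm needs least. Its peak (chr4:151044591-151045086) had signal 35.7 and −log10 q 2.48, with the summit 174 bp upstream of the TSS. In replicate 2 the call had signal 18.999 and rank 4909, and in replicate 1 signal 7.25 and rank 70605. The peak was absent from the conservative list, and of the 2 replicates only replicate 2 held it among the leading peaks. The D-boxes lay on either side of the summit, at chr4:151044816-151044823 and chr4:151044863-151044870.

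The cryptochromes encode flavoproteins that, bound to PER, block CLOCK and ARNTL directly, and of the 2 genes only Cry2 had optimal peaks. Cry2 (ENSMUSG00000068742, chr2:92403646-92434043, minus strand) had 5 calls in 3 merged sites, all in introns 2 and 3, between 7279 and 10138 bp after the nearest TSS. The strongest (chr2:92423650-92424145, intron 3) had signal 46.8 and rank 3666, with signal 16.1 (rank 12274) in replicate 1 and 29.9 (rank 1506) in replicate 2. It held 2 E-boxes, at chr2:92423867-92423872 and chr2:92423920-92423925, 1 on each side of the summit. The other 4 calls had signals from 19.3 to 24.9, and none of them was among the leading peaks of both replicates. For chr2:92426296-92426791 (24.9) no call of replicate 2 lay within 100 bp, and for chr2:92423857-92424352 (23.7) none of replicate 1 did. The calls at chr2:92424624-92425119 (24.7) and chr2:92426509-92427004 (19.3) were found in both full lists, with ranks 8656 and 198762 for the former and 55570 and 9060 for the latter. By the 100 bp rule the replicates thus shared 1 leading peak of 5 at Cry2 and 6 of 6 at Per1. The rule matters at Cry2, where the calls chr2:92426296-92426791 and chr2:92426509-92427004 overlap. There replicate 1 had a leading call (rank 13710) and replicate 2 had another (rank 9060), with summits more than 100 bp apart.

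Cry1 and Clock had no optimal peak, but other lists held weaker calls at both promoters. Cry1 (ENSMUSG00000020038, chr10:85131700-85185064, minus strand) is the stronger repressor of the cryptochromes. Its promoter call, 156 bp upstream of the gene start, had a pooled signal of 30.2, −log10 q 2.14 and pooled rank 9449, and replicate 2 had a call 164 bp upstream with rank 18751 (signal 10.3). The strongest promoter call of replicate 1, with rank 12541 (signal 15.9), lay 1 bp upstream, too far from the pooled summit to count as the same call. That pooled signal was above those of several peaks that the optimal list does hold, such as the Per1 peak of intron 8 with 26.8. Clock (ENSMUSG00000029238, chr5:76209868-76304792, minus strand) encodes the partner of ARNTL. Its promoter call, 279 bp upstream of the nearest coding TSS, had pooled signal 15.1, −log10 q 0.676 and pooled rank 32084, and replicate 1 had a call 276 bp upstream with rank 13351 (signal 15.3). The strongest promoter call of replicate 2 was another, 120 bp downstream of a TSS, with rank 164739 (signal 5.01). At both promoters a call stood among the 17372 leading peaks of replicate 1 and none did in replicate 2. The Cry1 call was also among the leading pooled peaks and the Clock call was not.

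Arntl, the activator whose loss alone stops the clock, had the strongest promoter peak of the 7 genes. In Arntl (ENSMUSG00000055116, chr7:113207465-113314126, plus strand) the peak at chr7:113207190-113207388 had signal 189.2 and rank 44, with ranks 31 (112.6) and 54 (79.3) in the replicates. Its summit lay 197 bp upstream of the gene start. No E-box, D-box, ROR element, CRE or GRE lay in its window. It held 6 matches to CCAAT or its complement, of which 2 overlap as CCAATTGG, and no window of the optimal list held more than 6. This motif, the recognition sequence of the factor NF-Y, was searched after the window had been seen. At least 4 matches stood in 0.311% of all windows (54) and in 0.895% of promoter-proximal windows (52). The Per1 promoter window of rank 1742 held 4 and that of Per3 held 3. The second Arntl peak, in an intron (chr7:113251226-113251721), was the weakest of the 19, with signal 7.62, −log10 q 0.0381 and rank 17169. Replicate 1 had no call within 100 bp and replicate 2 ranked it 229818. Per the pooled list its rank was 229374, so the presence of a peak in the optimal list was not set by its pooled signal alone. Its summit lay 44009 bp after the gene start. Near it, a pooled call at 43695 bp had signal 21.7 and rank 17060 and was not in the optimal list. A call of replicate 1 at 43514 bp had signal 14.1 and rank 15692. Without replicate 1, Arntl had 1 peak in place of 2.

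Taking the strongest call within 1 kb of a coding TSS in each list puts all 7 genes under 1 rule, but not on equal terms. At Cry1, Cry2 and Clock the strongest calls of the lists lay at different positions. The coding TSSs to choose from also differed: 5 at Per1, 4 at Arntl, 3 at Clock, 2 each at Cry1 and Cry2, and 1 each at Per2 and Per3. The order by pooled rank was Arntl (44), Per1 (479), Per2 (667), Per3 (6799), Cry1 (9449), Cry2 (14493) and Clock (32084). Arntl, Per1 and Per2 came before the other 4 genes in both replicates. The order within those 3 was the same in replicate 1 (31, 761 and 1029), while in replicate 2 Per2 (314) came before Per1 (420). Among the other 4 the replicates did not give 1 order: Cry1, Clock, Cry2 and Per3 ranked 12541, 13351, 17009 and 70605 in replicate 1, and Per3, Cry2, Cry1 and Clock ranked 4909, 11424, 18751 and 164739 in replicate 2. Per3, Cry1, Cry2 and Clock can therefore not be placed in order beyond the spread of the replicates. The Cry2 promoter call (pooled signal 23.9) is not in the optimal list.

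**Figure D2:**
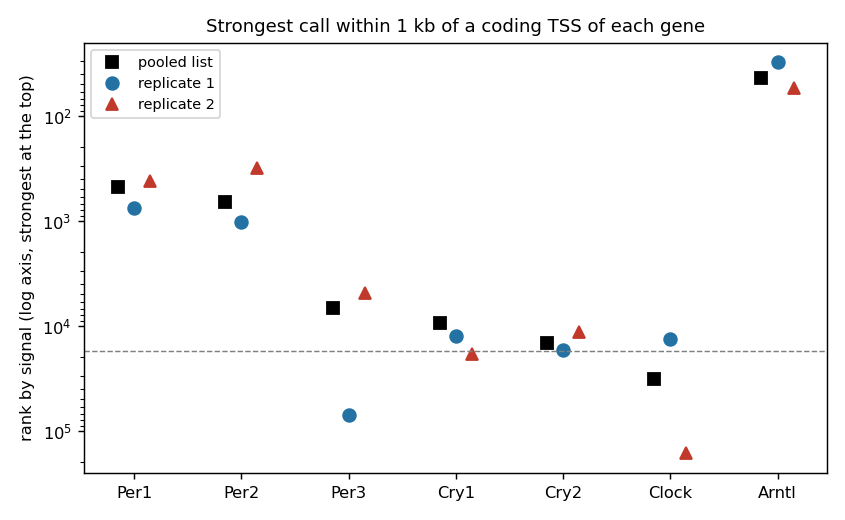
Rank by signal of the strongest EP300 call within 1 kb of a coding TSS of each gene, on a log axis with the strongest at the top, in the pooled list (squares), replicate 1 (circles) and replicate 2 (triangles). The dashed line marks rank 17372, the length of the optimal list; Arntl, Per1 and Per2 lie far above it in all 3 lists, while Per3, Cry1 and Clock have 1 replicate on each side of it.

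Of the 19 peaks, 7 were promoter-proximal (summit within 1 kb of a coding TSS), against 33.5% of all optimal peaks. Per1 held 4 of these and Per2, Per3 and Arntl 1 each. The 7 had signals from 35.7 to 189.2 with a median of 69.2, and the 12 distal peaks from 7.62 to 299.8 with a median of 25.1. The distal peaks thus held the 2 strongest sites, at Per1 and Per2, and also every call below 35.7. The GC content of the 19 windows ran from 38% to 67.5% with a median of 56.5%, where the median of all windows was 53%. Summits lay 7279 bp from the closest TSS at the median, and those of all optimal peaks 8078 bp.

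In both replicates, 12 of the 19 peaks had a summit within 100 bp among the 17372 leading peaks, against 40.9% of all optimal peaks. The optimal list was itself made from these replicates, so this is no independent support. Replicate 1 held 14 of them, replicate 2 held 15, and 2 were leading in neither. The 12 shared peaks were all 6 of Per1, 4 of Per2, and 1 each of Cry2 and Arntl. The conservative list, with 15628 peaks, held 14 of the 19 intervals. For this count, the looser rules and the single replicates, no share over all optimal peaks was taken. Those counts are therefore description only. The 3 strongest ranked from 1 to 54 in both replicates, while of those with signal under 25 none was leading in both.

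**Figure D3:**
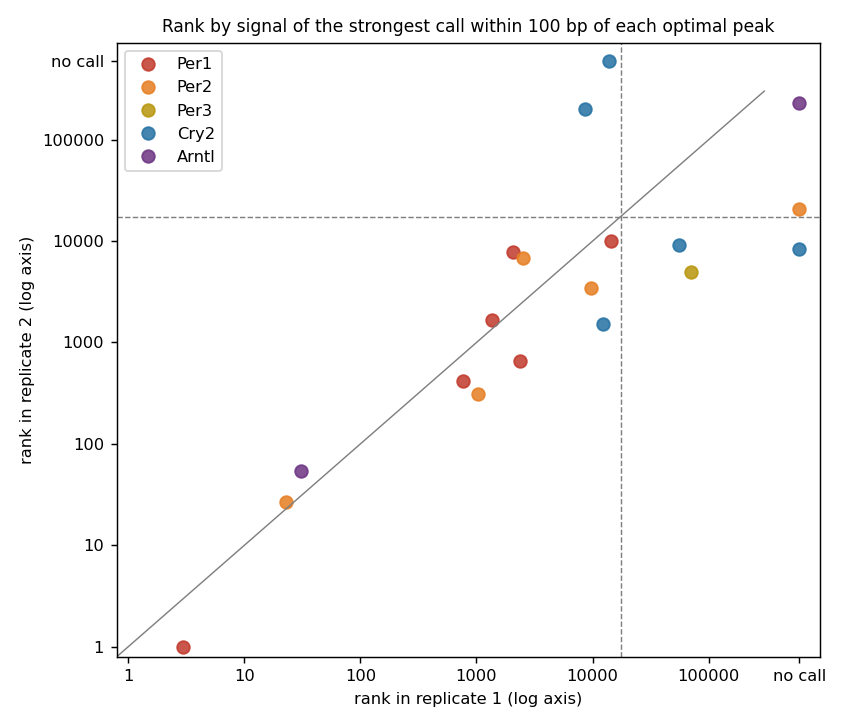
Rank by signal in replicate 1 (horizontal) and replicate 2 (vertical) of the strongest call within 100 bp of each of the 19 optimal peaks, both on log axes, coloured by gene; "no call" means that the list holds none within 100 bp. Dashed lines mark rank 17372 and the diagonal equal ranks; the 12 peaks at the lower left are leading in both replicates, and the Cry2 points scatter to both sides.

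Each element was then counted in the 200 bp windows of all 19 peaks and of all 17339 peaks, on both strands. A match describes letters and is not evidence of a bound factor. The E-box CACGTG stood in 3 of the 19 windows (2 at Per1 and 1 at Cry2, or 2 of 15 merged sites), against 6.3% of all windows. The E-prime box stood in 0 (3.88% of all), the D-box in 2 (1.59% of all) and the ROR element, given by name alone, in 0 (0.525% of all). The full CRE stood in 0 (1.05% of all) and its part TGACGT in 1 (5.05% of all). The GRE stood in 3 of 19, against 2.09% of all windows, 0.482% of promoter-proximal and 2.90% of distal ones. Counts of 2 or 3 windows are small, and neighbouring windows of 1 gene are not independent, so no more than these counts is stated.

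GRE matches were commonest among the strongest peaks of the whole list. They stood in 16 of the first 50 windows (32%), in 5.47% of the highest 10% and in 1.18% of the lowest 50%. The Per1 and Per2 peaks of ranks 2 and 24 were among those 16, and the Arntl peak of rank 44 was not. Over the 362 windows with a GRE, its centre lay a median of 25 bp from the summit, and within 20 bp in 45.0% of them. The 4 GREs of the clock genes were centred from 6 to 15 bp from the summit. The glucocorticoid receptor shares this element with other steroid receptors, and which receptor, if any, was present was not measured.

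**Figure D4:**
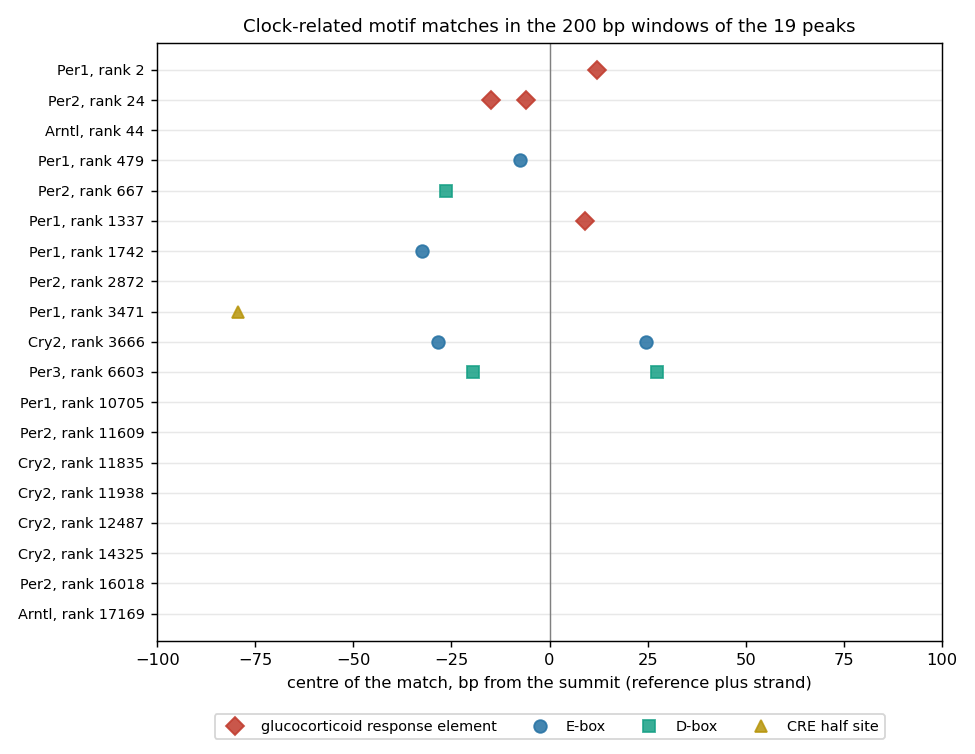
Positions of clock-related motif matches in the 200 bp windows of the 19 peaks, in order of rank, as the distance of the match's centre from the summit (bp, reference plus strand). GREs (diamonds), E-boxes (circles), D-boxes (squares) and the CRE part (triangle) are shown; all but the CRE part lie within 35 bp of the summit, and the 8 weakest peaks hold none.

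Elements of heart and general factors showed counts of 0 to 3. MEF2, a muscle factor given by name alone, matched 2 windows (5.48% of all), GATA 1 (13.1%), TEAD, as CATTCC, 2 (14.9%), NKX2, as TNAAGTG, 1 (9.72%) and CArG, by name alone, 0 (1.44%). ETS, as CCGGAAG, matched 3 (6.85%), KLF/SP, as GGGCGGG, 3 (12.2%), AP-1 1 (7.41%) and the class A E-box CAGCTG 3 (17.8%). Every window with an ETS or KLF/SP match was promoter-proximal. Over all promoter-proximal windows the shares were 14.8% for ETS and 27.2% for KLF/SP. In the RefSeq promoter table (250 bases before to 50 after a start, GRCm38), 10 entries matched 6 of the 7 genes, all but Per2, and each was identical to the genome. The Arntl promoter held a ROR element at chr7:113207537-113207547, 26 bp after the RefSeq start and 274 bp from the nearest EP300 summit. That element stood in 0.384% of the 32851 promoters of the table. The Cry1 promoter held an E-box at chr10:85185109-85185114, 60 bp before the start, and an E-prime box, where no optimal peak was called. Those motifs stood in 7.15% and 4.68% of the promoters. A Cry2 promoter held an E-prime box 7476 bp from the nearest optimal summit, and a Per1 promoter an E-box 628 bp from its nearest. Other matches lay closer to a summit: the CRE part at Per1 (79 bp) and the D-boxes of Per3 (19 and 28 bp). Promoter matches of clock motifs thus lay both near to and far from the EP300 summits of the optimal list.

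Neighbouring genes took some calls near Per1 and Per2 by the nearest-TSS rule. Beyond the end of Per1, calls of 29.1 and 23.6 lay 736 bp and 961 bp outside the gene and were assigned to Hes7, with a further Hes7 call of 24.9 and 1 of 27.7 at 9130213A22Rik. Upstream of Per1 a call of 8.15 was assigned to Vamp2. Beyond the end of Per2, calls of 66.4, 35.5 and 22.9 were assigned to Hes6. Counting every call inside a gene or within 10 kb of it gave 26 calls in place of 19, with 10 at Per1 and 8 at Per2. Assignment by distance is not a measured link between a peak and a gene.

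Of 31 other clock genes, 23 had at least 1 optimal peak, against the 31.8% of all protein-coding genes given above, with 77 peaks in all and a median of 2 per gene, where the median of all genes was 0. Nr1d1, which encodes REV-ERB alpha, and Bhlhe40, which encodes the E-box repressor DEC1, had the most, with 9 peaks each and strongest signals of 96.8 and 100.6. Usp2, a deubiquitinase that acts on clock proteins, had 7 (78.3). By group, peaks stood at 4 of 5 nuclear receptor genes, 3 of 3 E-box repressors, 4 of 4 genes of the PAR bZIP and E4BP4 group, 5 of 7 kinases, 6 of 10 genes of turnover and cofactors, and 1 of 2 activator partners (Npas2). The genes with none were Arntl2, Rorb, Csnk2b, Prkaa1, Fbxl21, Sirt1, Timeless and Nono. The highest signal among these 31 was 165.3, at Nfil3, a gene named here after its values were seen, so each of the strongest peaks of Per1, Per2 and Arntl lay above all of them.

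**Figure D5:**
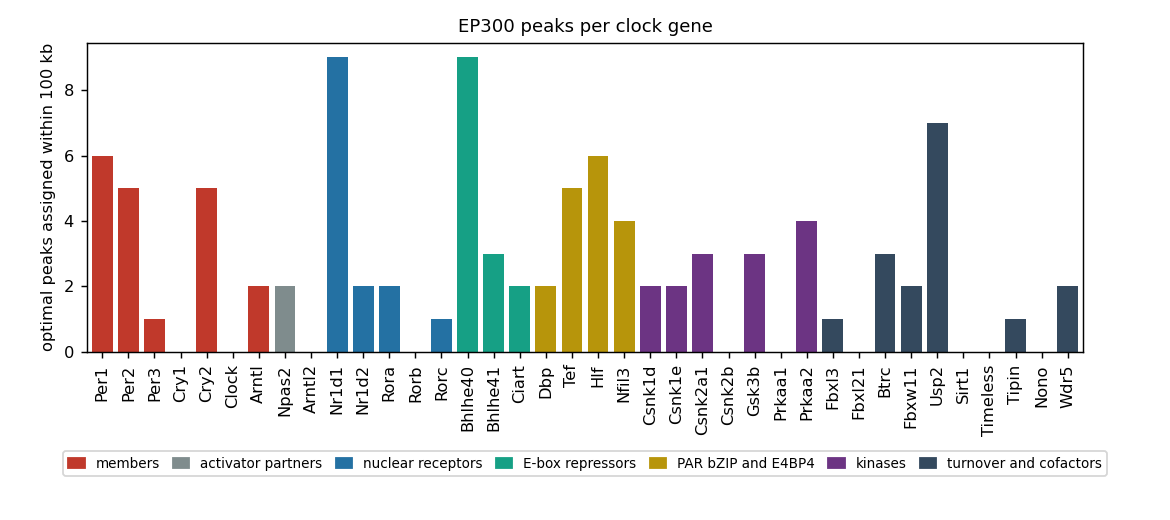
Number of optimal EP300 peaks assigned within 100 kb (vertical axis) to each of the 7 core genes (members, left) and to 31 other clock genes, coloured by group. Nr1d1 and Bhlhe40 have the tallest bars with 9 peaks each, above Usp2 with 7 and Per1 and Hlf with 6; a gene without a bar has 0.

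The labelled tissue was checked by peaks at marker genes. All 6 heart muscle markers had peaks (77 in all, from 1 to 27 per gene), as did all 4 endothelial markers (20, from 1 to 10). Of all protein-coding genes 31.8% had a peak. Of the fibroblast markers 1 of 3 had a peak, of the neuronal markers 1 of 3, and of the blood and liver markers none of 3 and none of 2. In whole tissue a higher signal can mean more cells with EP300 at a site or more EP300 per cell, and these cannot be told apart. No reads or counts were used, so the depth is unknown. The highest signal was 178.1 in replicate 1 and 139.3 in replicate 2, and the medians of their 17372 leading peaks were 19.2 and 14.8, which is why ranks rather than signals were set side by side between lists.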

How the data were processed

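EP300 ChIP-seq peak lists of 2 replicates were used as deposited, on mm10. Per the deposited notes, the authors called peaks on replicate 1 with 2 control files, on replicate 2 with 1, and on pooled reads with 2. They took the optimal and conservative lists by irreproducible discovery rate (IDR). For the aligner, caller and IDR threshold the sources used here give no entry. The authors deposited for each peak a signal, a −log10 q and, in the IDR lists, a score of at most 1000, which 11 of the 19 peaks and 6480 of all had.

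From these, summits were computed, peaks on other contigs left out (17339 of 17372 kept) and each assigned to the nearest of 54397 coding TSSs of GENCODE M21 within 100 kb. Leading peaks are the 17372 of highest signal. Motif windows (200 bp) were read from the RefSeq GRCm38.p6 sequence. The counting was tested on simulated data. Named are all 7 genes, neighbours that took calls, the 3 other clock genes with most peaks and those with none, and the gene next to Per1 by strongest peak. The genes, lists and motifs were chosen with earlier results of these data known. The CCAAT search and the sequence windows with GREs or D-boxes beyond the 3 strongest peaks were added after seeing these data. Alternatives were other distances, TSS sets, lists, thresholds, windows and each replicate alone. The work used SciPy 1.17.1, matplotlib 3.10.9, numpy 2.4.6, Python 3.11.15 and pandas 2.3.3.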

Additional observations from a re-analysis of the deposited data

How the results depend on the processing

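Of 58 alternative values for the 7 counts described, 55 stayed within 1.5 times the reported one. The 3 others follow from the alternative's construction: 11 assigned peaks in place of 19 with a −log10 q of at least 2, 7 peaks in both replicates in place of 12 among the first 5000 of each, and 10 in place of 6 in the highest 25%. With 1 replicate alone, the assigned peaks numbered 22 to 23, the core genes with a peak 5 to 6 and the other clock genes 23 to 26. Single genes were less stable, with 18 of 84 values moved. Per3 had 0 peaks in the conservative list and without replicate 2. Cry1 gained 1 among the leading pooled peaks and without replicate 2, and Clock 1 without replicate 2. Per1 had 10 without replicate 1 and 10 by gene span. Per2 had 3 within 20 kb, 2 within 10 kb, 3 with the q minimum and 8 by gene span. Cry2 fell to 3 in the conservative list and in merged sites and to 1 with the q minimum. Arntl had 1 in place of 2 in the conservative list, within 10 kb, with the q minimum and without replicate 1. At 400 bp windows 4 peaks held an E-box (10.4% of all), and at 100 bp 3 did (3.55%). No paired analysis was possible because there is 1 group. Depth is unknown, so what it limits could not be given.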
